A study of Mus musculus with 16 samples.

Results

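The matrix metalloproteinases, the ADAMTS proteases, the ADAMTS-like proteins and the tissue inhibitors of metalloproteinases (TIMPs) comprise enzymes that cut extracellular matrix, related matrix proteins without protease activity, and inhibitors of the enzymes. Their genes were taken from the count table by symbol (Mmp, Adamts, Adamtsl and Timp followed by a number), which gave 51 of 54838 genes: 23 Mmp, 19 Adamts, 5 Adamtsl and 4 Timp. RNA was measured in 16 C57BL/6 mouse spleen samples, 8 size-selected and 8 whole spleen. The size-selected samples are the material held back by a cell strainer after spleens had been minced, digested with enzymes including Dispase II and freed of red blood cells; the labels call their source spleen glia. The whole spleen samples carry the same protocol text, which does not say how they were handled differently, and the labels give no age. Both fractions come from the same 8 numbers, 4 male (407, 408, 427, 435) and 4 female (436, 445, 447, 460). The labels do not say outright that a number is an animal, so the p-values measure the spread between these samples.

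Matrix metalloproteinases are zinc enzymes made as inactive precursors and divided by habit into collagenases, gelatinases, stromelysins and membrane-anchored members. ADAMTS proteases share the zinc site and add thrombospondin repeats that hold them in the matrix, where some cut aggregating proteoglycans such as versican and others trim procollagen or von Willebrand factor. ADAMTS-like proteins have the repeats but no protease domain, and the TIMP proteins block the active site of the metalloproteinases, TIMP3 also that of several ADAM and ADAMTS enzymes. In spleen, neutrophils and macrophages store or secrete some of these proteases, while fibroblasts, muscle-like cells and endothelium of the stroma make others.

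Totals were 13119992 to 19944440 estimated counts in the size-selected samples and 12153770 to 16282454 in whole spleen. Markers of glia were present where the label places them. S100b, Cdh19, Fabp7 and Scn7a were called higher in the size-selected fraction, and Sox10 was too low to test (0.53 to 6.58 CPM, which are counts scaled to a common library size with TMM factors, against at most 0.408). Cdh19 was at 4.74 to 80.4 CPM against at most 0.28, and Scn7a at 22.3 to 195 against at most 1.08. Over all 14510 genes tested 37.5% were called higher and 30.4% lower, which is the share to hold the marker counts against. Other stromal lists were higher as well. The 6 fibroblast genes summed to 1003 to 3484 CPM in the size-selected samples and 4.67 to 55.6 in whole spleen, the 6 smooth muscle and pericyte genes to 789 to 3716 against 8.55 to 72.5, the 6 endothelial genes to 586 to 1479 against 80.6 to 186, and the 5 mesothelial genes to 19.6 to 173 against 0.381 to 3.02, with every gene of these 4 lists called higher. Of 8 genes known to be induced by tissue dissociation, 7 were higher, with sums of 3507 to 7048 CPM against 1203 to 1915. Of 6 macrophage genes 3 were higher (2453 to 5369 CPM against 1304 to 2505) and 3 were not called, 4 of 4 megakaryocyte genes were higher (62.3 to 404 CPM against 31.4 to 117), and 6 of 6 neutrophil, 4 of 4 B cell, 3 of 4 T cell and 2 of 4 erythroid genes were lower. No marker was at 0 throughout a fraction. The part of each cell type, or of dissociation, in these results was not tested, and in bulk RNA fewer cells of a type and less RNA per cell cannot be told apart.

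Most of the protease and inhibitor genes that could be tested were more abundant in the size-selected fraction. Of the 51 genes, 34 passed the filter on low counts and 17 did not. Among the 34, 28 were called higher in the size-selected fraction and 2 were called lower, Mmp8 and Adamts6, by edgeR's quasi-likelihood test with a Benjamini-Hochberg adjusted p under 0.05. The other 4, Mmp9, Mmp12, Mmp19 and Mmp25, were not called. The shares of all tested genes were 37.5% higher and 30.4% lower. The count was 29 higher and 3 lower with the number as a replicate block (all genes 38.1% and 31.3%) and 28 higher and 4 lower with DESeq2 (all genes 37.4% and 32%). The median log2 fold change (size-selected over whole spleen) of the 34 genes was 3.83, and that of all genes tested was 0.05. Several of the 34, among them Mmp3, Adamts8, Adamts15 and the tested Adamtsl genes, passed the filter only through the size-selected samples where they were high. For these a rise was largely set by the filter, so the counts and medians of the set are descriptive. A log2 fold change of at least 3.5 was reached by 20 of the 34 genes, against 9.97% of all genes tested. For 26 of the 34 each size-selected value lay above each whole spleen value, against 23.3% of all genes, and for 0 did each lie below, against 11.6%. The 51 genes took 0.187 to 0.417% of counts in the size-selected samples and 0.015 to 0.0308% in whole spleen, so the shares did not overlap. The plot of values by sample shows the same split gene by gene.

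**Figure D1:**
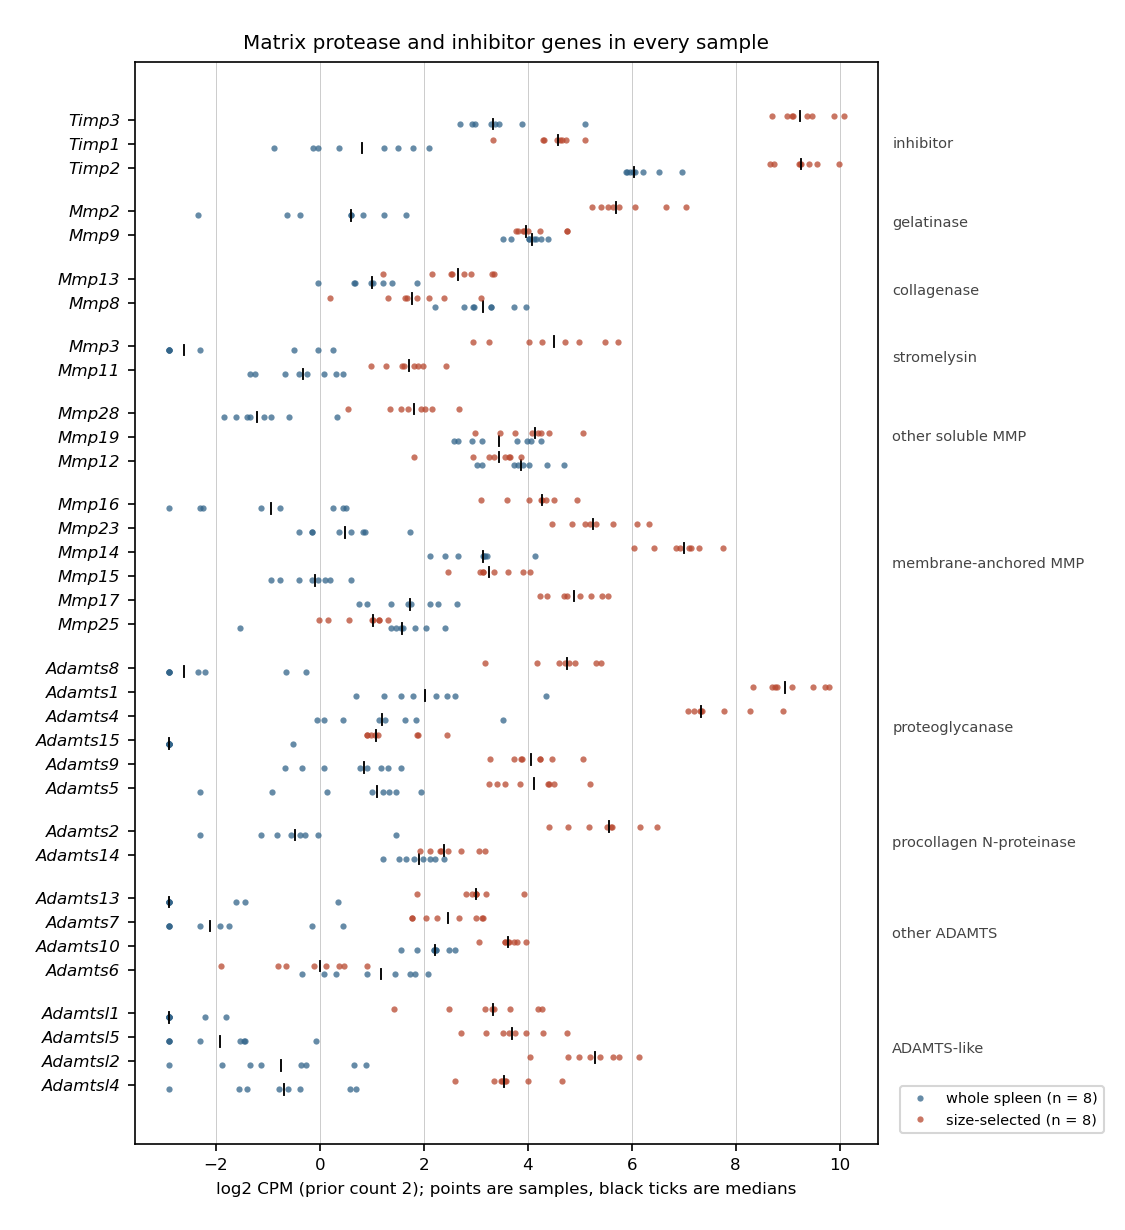
Level of each of the 34 tested genes on a log2 CPM axis (prior count 2), with 1 point per sample, 8 samples per fraction, and a black tick at each median. Genes are grouped by role, and 26 of the 34 show no overlap between size-selected and whole spleen samples.

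By family, all 3 tested Timp genes rose, with a median log2 fold change of 3.55. All 4 tested Adamtsl genes rose, with a median of 6.11. Their whole spleen medians were at most 0.486 CPM, so they passed the filter only through the size-selected samples. Of 12 tested Adamts genes 11 rose and 1 fell, with a median of 4.76. Of 15 tested Mmp genes 10 rose, 1 fell and 4 were not called, with a median of 3.09. These counts stand beside 37.5% called higher and 30.4% lower among all genes tested. By role, the proteases known to cut proteoglycans rose in 6 of 6 cases with a median of 5.70, and the membrane-anchored metalloproteinases in 5 of 6 with a median of 3.83. The 2 tested collagenases split, 1 higher and 1 lower. The deposited size-selected counts of 23 of the 51 genes had been multiplied by constants between 0.659 and 0.964, which no label mentions, and restored counts are those with the constants divided out. The counts and medians describe the genes that passed the filter. Some, such as Mmp3, Mmp16, Adamts8, Adamts15 and the Adamtsl genes, passed it only through the size-selected samples where they were high. Their rise was therefore largely set by the filter. The difference between families was not tested.

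**Figure D2:**
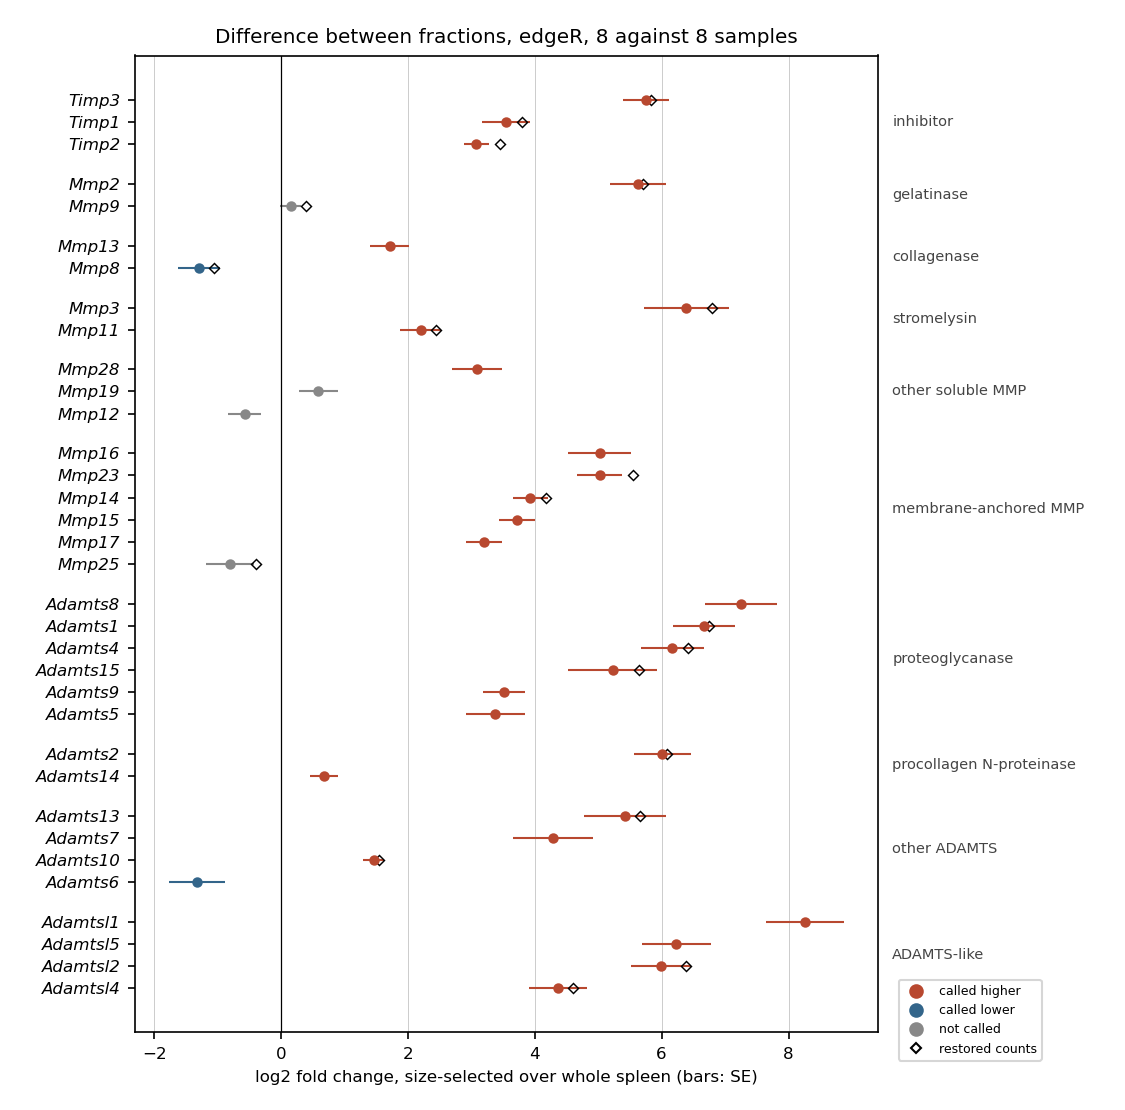
Log2 fold change of size-selected over whole spleen for the 34 tested genes by role, with bars for the standard error, red for higher, blue for lower and grey for not called (edgeR, 8 against 8 samples). Open diamonds show the fold change of genes whose size-selected counts carried a multiplied constant after the constant was divided out, which raised it by 0.08 to 0.53.

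The inhibitors were among the most abundant transcripts of the set. Timp3, whose protein binds to the matrix and is the broadest of the 4 inhibitors, ran from 413 to 1086 CPM with a median of 607 in the size-selected samples, and from 6.32 to 34.3 with a median of 9.93 in whole spleen. The ranges lay far apart, and the log2 fold change was 5.75 (SE 0.36, edgeR adjusted p = 3.06e-10). Timp2, an inhibitor that also takes part in activating pro-MMP2 at the cell surface, ran from 403 to 1012 CPM (median 609) against 59.0 to 125 (median 66.1). It rose by 3.08 on the log2 scale (SE 0.20, edgeR adjusted p = 4.82e-10). Timp1, an inducible inhibitor that binds pro-MMP9, ran from 9.92 to 34.4 CPM (median 23.9) against 0.412 to 4.13 (median 1.69). The groups did not overlap, and the log2 fold change was 3.55 (SE 0.38, edgeR adjusted p = 1.62e-07). Timp4 was too low to test, with 0.0665 to 5.94 CPM (median 0.542) in the size-selected samples and 0 in 7 of 8 whole spleen samples, the other at 0.326.

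Each tested Timp gene was higher in 8 of 8 pairs of the same number. The lowest size-selected value was in number 408 for Timp2 and Timp3 and in number 435 for Timp1, and the highest was in number 427 for each of the 3. Timp1 lies on chromosome X (20870166 to 20874735 on GRCm38, GENCODE release M21) inside Syn1, a synapsin gene. Timp3 (chromosome 10, 86300372 to 86349506) lies in the same way inside Syn3, and Timp4 (chromosome 6, 115241892 to 115252205) inside Syn2. Timp3 shares 1733 exon bases, 21.3% of its exon length, with Syn3 on the opposite strand, and whether the counting used strand is not given in the sources used here. Syn3 itself reached at most 0.998 CPM in the size-selected samples and 1.01 in whole spleen.

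The gelatinases, which digest denatured collagen and basement membrane collagen, were not alike. Mmp2, known as a product of fibroblasts and other stromal cells, ran from 37.8 to 132 CPM (median 51.7) in the size-selected samples against 0.0653 to 3.02 (median 1.37). It rose by 5.63 on the log2 scale (SE 0.44, edgeR adjusted p = 2.78e-09). Mmp9, known from neutrophils and macrophages, ran from 13.5 to 26.9 CPM (median 15.5) against 11.4 to 20.7 (median 16.7). The ranges overlapped, 4 of 8 pairs were higher and 4 lower, and the log2 fold change was 0.15 (SE 0.17, edgeR adjusted p = 0.444). Mmp9 carried a constant in the size-selected columns, and with the counts restored its log2 fold change was 0.39 (edgeR adjusted p = 0.0431), which is a call. The difference between the 2 genes was not tested.

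Among the collagenases, which open the triple helix of fibrillar collagen, Mmp8 and Mmp13 moved in opposite directions. Mmp8, the collagenase stored in neutrophil granules, ran from 1.01 to 8.46 CPM (median 3.27) in the size-selected samples against 4.5 to 15.6 (median 8.67). The ranges overlapped, yet Mmp8 was lower in 8 of 8 pairs and fell by 1.29 on the log2 scale (SE 0.33, edgeR adjusted p = 0.00224). The 6 neutrophil genes (S100a8, S100a9, Ly6g, Camp, Ltf and Ngp) all fell as well, with a median log2 fold change of -1.73 and sums of 91.3 to 863 CPM in the size-selected samples against 511 to 1889. Number 435 had the highest neutrophil sum in both fractions and the highest size-selected Mmp8 value, while the highest whole spleen Mmp8 value, 15.6 CPM, was in number 427. What share of the Mmp8 difference goes with neutrophil RNA was not tested. Mmp13, a collagenase of stromal and bone cells, ran from 2.19 to 10 CPM (median 6.21) against 0.839 to 3.53 (median 1.87). Its ranges also overlapped, it was higher in 8 of 8 pairs, and it rose by 1.71 on the log2 scale (SE 0.31, edgeR adjusted p = 7.12e-05). Mmp1a and Mmp1b, the mouse counterparts of human MMP1, had 0 counts in all 16 samples.

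The stromelysins have broad substrates and can activate other pro-enzymes. Mmp3 ran from 7.61 to 53.1 CPM (median 22.7) in the size-selected samples and was at 0 in 4 of 8 whole spleen samples, where it reached 1.06 at most. It had the largest rise of the Mmp genes, 6.39 on the log2 scale (SE 0.67, edgeR adjusted p = 1.23e-07), and its size-selected values spread widely, with numbers 436 and 427 high and 408 and 447 low. Mmp10, the closest relative of Mmp3, was too low to test, at 0 to 0.329 CPM (median 0.0481) against 0 to 0.763 (median 0.408). Mmp11, a stromelysin made by stroma and activated inside the cell, rose by 2.20 with no overlap between fractions.

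The remaining soluble metalloproteinases showed small differences or low levels. Mmp12, the macrophage elastase, ran from 3.36 to 14.4 CPM (median 10.9) in the size-selected samples against 8.06 to 25.6 (median 14.4). Its log2 fold change was -0.57 (SE 0.26, edgeR adjusted p = 0.0639), with 7 of 8 pairs lower. Mmp19, known from macrophages and vessel walls, ran from 7.83 to 33.5 CPM (median 17.5) against 5.83 to 19 (median 11.2), a log2 fold change of 0.59 with an SE of 0.30 (edgeR adjusted p = 0.0828). Mmp19 was higher in 8 of 8 pairs, by as little as 0.02 on the log2 scale in the closest pair. With the number as a replicate block both became calls, Mmp12 lower (edgeR adjusted p = 0.0131) and Mmp19 higher (edgeR adjusted p = 0.00667). Mmp12 was also called lower with restored counts and with no count filter (edgeR adjusted p = 0.0459 and 0.0499), by DESeq2 (adjusted p = 0.0403), without number 427, without the whole spleen sample of 427 and without number 435 (edgeR adjusted p = 0.0366, 0.0325 and 0.0464). Mmp19 shares 789 exon bases, 22.3% of its exon length, with Tmem198b on the opposite strand, a gene at 10.4 to 19.6 CPM in the size-selected samples and 9.14 to 17.5 in whole spleen, so its value is uncertain if strand was not used. Mmp28, also called epilysin, rose by 3.09 with no overlap.

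Of 7 membrane-anchored metalloproteinases 6 could be tested, and 5 rose with no overlap between fractions. Over all genes tested 37.5% were called higher, and 23.3% had each size-selected value above each whole spleen value. Mmp14, the membrane collagenase that activates pro-MMP2, ran from 66.0 to 215 CPM (median 129) in the size-selected samples against 4.20 to 17.5 (median 8.67). It rose by 3.93 on the log2 scale (SE 0.28, edgeR adjusted p = 1.18e-09). Mmp23, which has an unusual membrane anchor at its amino end, ran from 21.8 to 80.3 CPM (median 38.2) against 0.618 to 3.18 (median 1.26), a log2 fold change of 5.02 with an SE of 0.35 (edgeR adjusted p = 7.95e-10). Mmp16, a transmembrane relative of Mmp14, ran from 8.37 to 30.6 CPM (median 19.1) against 0 to 1.29 (median 0.389), also 5.02 on the log2 scale but with a wider error (SE 0.49, edgeR adjusted p = 5.17e-08). Mmp14, Mmp15 and Mmp16 are held by a transmembrane helix. Mmp15 ran from 5.40 to 16.3 CPM (median 9.38) against 0.385 to 1.39 (median 0.802) and rose by 3.72. Mmp17 and Mmp25 are held by a lipid anchor. Mmp17 ran from 18.8 to 46.6 CPM (median 29.3) against 1.56 to 6.10 (median 3.18) and rose by 3.20 (SE 0.28, edgeR adjusted p = 9.98e-09). Mmp25, which is known from leukocytes and above all neutrophils, was at 0.859 to 2.34 CPM against 0.21 to 5.14, and its log2 fold change was -0.80 (SE 0.38, edgeR adjusted p = 0.0703). It was called lower by DESeq2 (adjusted p = 0.0496) and without number 435 (edgeR adjusted p = 0.00535). It was not called with the replicate block (log2 fold change -0.64, edgeR adjusted p = 0.197) or with restored counts (-0.39, edgeR adjusted p = 0.375). Mmp24 was too low to test.

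The ADAMTS proteases that cut proteoglycans held the largest rises of the Adamts genes. Adamts1, the founding member of the family, ran from 324 to 886 CPM (median 493) in the size-selected samples against 1.48 to 20.2 (median 3.95). The whole spleen sample of number 427, at 20.2 CPM, stood well above the next at 5.9, and the log2 fold change was 6.67 (SE 0.49, edgeR adjusted p = 1.57e-09) with it and 7.30 without it. Adamts4, an aggrecanase, ran from 136 to 481 CPM (median 162) against 0.824 to 11.4 (median 2.15), with 427 again the highest whole spleen sample. Its log2 fold change was 6.17 (SE 0.50, edgeR adjusted p = 5.06e-09), and 6.82 without the whole spleen sample of 427. Adamts8 ran from 8.86 to 42.5 CPM (median 26.7) and was at 0 in 4 of 8 whole spleen samples, with 0.701 at most. It rose by 7.25 on the log2 scale (SE 0.56, edgeR adjusted p = 2.49e-09), or by 8.07 without number 435.

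Adamts5, the aggrecanase known from cartilage loss, ran from 9.48 to 36.5 CPM (median 17.5) against 0.0687 to 3.71 (median 2.02), a log2 fold change of 3.38 with an SE of 0.46 (edgeR adjusted p = 3.44e-06). Adamts9, which cuts versican, ran from 9.58 to 33.2 CPM (median 16.7) against 0.49 to 2.82 (median 1.66) and rose by 3.51 (SE 0.33, edgeR adjusted p = 3.42e-08). Adamts15 was low, at 1.73 to 5.30 CPM, and was at 0 in 7 of 8 whole spleen samples. Its log2 fold change of 5.23 depended on the remaining sample, number 427 at 0.571 CPM, and was 8.17 without that number and 8.37 without that sample alone. Adamts20 did not pass the filter, with 218 counts in the 8 size-selected samples and 1 in whole spleen, a ratio of 188 with an exact 95% interval of 33.5 to 7478 that covers counting error only.

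Adamts2, which trims the amino end of procollagen, ran from 21 to 89.4 CPM (median 47.2) in the size-selected samples against 0.0687 to 2.61 (median 0.587). It rose by 6.01 on the log2 scale (SE 0.45, edgeR adjusted p = 1.85e-09). Adamts14, of the same function, was at 3.69 to 8.95 CPM against 2.20 to 5.11, and its log2 fold change was 0.68 with an SE of 0.22 (edgeR adjusted p = 0.0114). The ranges overlapped, and without number 427 its log2 fold change was 0.49 and the call was lost (edgeR adjusted p = 0.0502). Adamts3, the third of these enzymes, was too low to test. All 3 have the same known task, and only Adamts2 separated the fractions without overlap.

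The other ADAMTS genes included Adamts6, the only one of the Adamts genes called lower. This relative of Adamts10 ran from 0.133 to 1.73 CPM (median 0.871) in the size-selected samples against 0.653 to 4.10 (median 2.16). These are low levels with overlapping ranges, but Adamts6 was lower in 8 of 8 pairs and fell by 1.33 on the log2 scale (SE 0.44, edgeR adjusted p = 0.0124). Adamts10, which is tied to fibrillin microfibrils, ran from 8.18 to 15.4 CPM (median 12.1) against 2.81 to 5.91 (median 4.51), and rose by 1.46 (SE 0.17, edgeR adjusted p = 3.13e-07). Adamts13, the protease that cuts von Willebrand factor, ran from 3.53 to 15.0 CPM and was at 0 in 5 of 8 whole spleen samples. Its log2 fold change was 5.42 (SE 0.65, edgeR adjusted p = 6.36e-07), and 6.73 without number 427 or 6.90 without the whole spleen sample of 427. Adamts7, which cuts COMP, rose by 4.29, or by 5.13 without number 408.

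The ADAMTS-like genes, whose proteins lack catalytic activity and in several cases bind microfibrils, had medians of at most 0.486 CPM in whole spleen. Adamtsl1 ran from 2.56 to 19.1 CPM (median 9.98) in the size-selected samples and was at 0 in 6 of 8 whole spleen samples. It had the largest log2 fold change of the 34 tested genes, 8.26 (SE 0.61, edgeR adjusted p = 1.48e-09). That figure rests on 3 whole spleen counts in all against 1417, a ratio of 408 with an exact 95% interval of 139 to 1983, and it was 9.35 without number 408. Adamtsl2, linked to fibrillin and latent TGF-beta binding proteins, ran from 16.3 to 70.3 CPM (median 39.1) against 0 to 1.71 (median 0.484) and rose by 5.99 (SE 0.47, edgeR adjusted p = 3.01e-09). Adamtsl4, a protein of the fibrillin microfibrils that suspend the lens of the eye, ran from 5.95 to 25 CPM (median 11.4) against 0 to 1.48 (median 0.486) and rose by 4.37. Adamtsl5 ran from 6.44 to 27.0 CPM (median 12.8) against 0 to 0.816 (median 0.139) and rose by 6.23 (SE 0.54, edgeR adjusted p = 9.76e-09). Without number 427 its log2 fold change was 6.84, and without the whole spleen sample of 427 it was 7.03. Adamtsl3 was at 0.336 to 3.59 CPM in the size-selected samples and at 0 in each whole spleen sample, at least 37-fold higher when 3 counts over the group are taken as the floor.

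The 17 genes that did not pass the filter were low in both fractions. Besides Timp4, Adamts20 and Adamtsl3, the highest size-selected sample of any of them was Adamts12 at 3.43 CPM. Adamts12 had 202 counts in the size-selected samples and 2 in whole spleen, a ratio of 87.3 (exact 95% interval 23.9 to 726). Adamts16 reached 2.36 CPM against 0.196 and Adamts17 1.65 against 0.61. Adamts18 and Adamts19 were at 0 in each whole spleen sample and at least 6.9-fold and 4.9-fold higher by the same floor. Mmp7, Mmp20 and Mmp21 were at 0 in at least 5 samples of each fraction, and Mmp24 and Mmp27 reached at most 1.05 and 1.43 CPM. With no filter, 8 of these genes were called higher (Adamts12, Adamts16, Adamts17, Adamts18, Adamts19, Adamts20, Adamtsl3 and Timp4) and 1 lower (Mmp10, log2 fold change -2.14, edgeR adjusted p = 0.0251), when 25.3% of 28235 genes were called higher and 18.2% lower.

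Levels of different genes can be compared only per length, here as CPM per kilobase of exon. The length was that of all annotated exons of a gene merged, not of the transcripts expressed. The order of genes depends on it. Some orders differed by the authors' mean TPM in the size-selected samples, where Timp3 (195) stood above Adamts1 (160) and Mmp23 (71.7) above Mmp2 (34.3). In the size-selected samples Timp2 was highest at 163 ± 49.2 CPM per kilobase (SD, n = 8), followed by Adamts1 at 108 ± 40.1 and Timp3 at 83.1 ± 28.3. Adamts4 (46.1 ± 24.7), Timp1 (25.8 ± 7.89), Mmp14 (21.8 ± 7.6), Mmp2 (19.6 ± 9.79), Mmp23 (19.2 ± 8.62) and Mmp3 (14.4 ± 9.08) came next. Adamts1 and Timp3, and each pair of neighbours from Adamts4 down to Mmp3, differed by less than the larger SD of the pair. The SD is the spread between samples, and the genes of a pair were measured in the same samples. Their order within samples was not tested, so it is not settled. In whole spleen the order was different: Timp2 was again highest at 19.4 ± 5.82, followed by Mmp9 at 4.62 ± 0.867, Mmp8 at 3.84 ± 1.48 and Mmp19 at 3.29 ± 1.48, and Timp1, Mmp12, Timp3, Mmp14, Adamts1 and Mmp13 stood between 2.2 and 0.735. Mmp9 and Mmp8, and Mmp8 and Mmp19, also differed by less than the larger SD of the pair. Their order within samples was not tested, so it is not settled either. Of Mmp9, Mmp8 and Mmp19, none was called higher in the size-selected samples as deposited, although Mmp9 was with restored counts and Mmp19 with the replicate block, with sex as a covariate or with library totals.

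Summed per family, the inhibitors ran from 177 to 433 CPM per kilobase (median 256) in the size-selected samples against 17.2 to 40.1 (median 20.1) in whole spleen. The Mmp genes summed to 65.4 to 159 (median 96.5) against 15.9 to 24.5 (median 18.7), and the Adamts genes to 103 to 295 (median 144) against 2.29 to 8.34 (median 3.68). No sum overlapped between fractions. The Timp sum was 2.71 ± 0.33 times the Mmp sum (SD, n = 8) in the size-selected samples, from 2.18 to 3.15, and 1.2 ± 0.344 times in whole spleen, from 0.811 to 1.74. Against Mmp and Adamts genes together the Timp sum was 1.01 ± 0.127 times in the size-selected samples and 0.988 ± 0.235 times in whole spleen, with overlapping ranges of 0.772 to 1.2 and 0.733 to 1.42. With restored counts the size-selected ratios were 2.78 ± 0.358 and 1.09 ± 0.144. The ratios describe RNA and not active protein, and they also depend on the merged exon lengths. No test was made of sums over chosen genes.

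**Figure D3:**
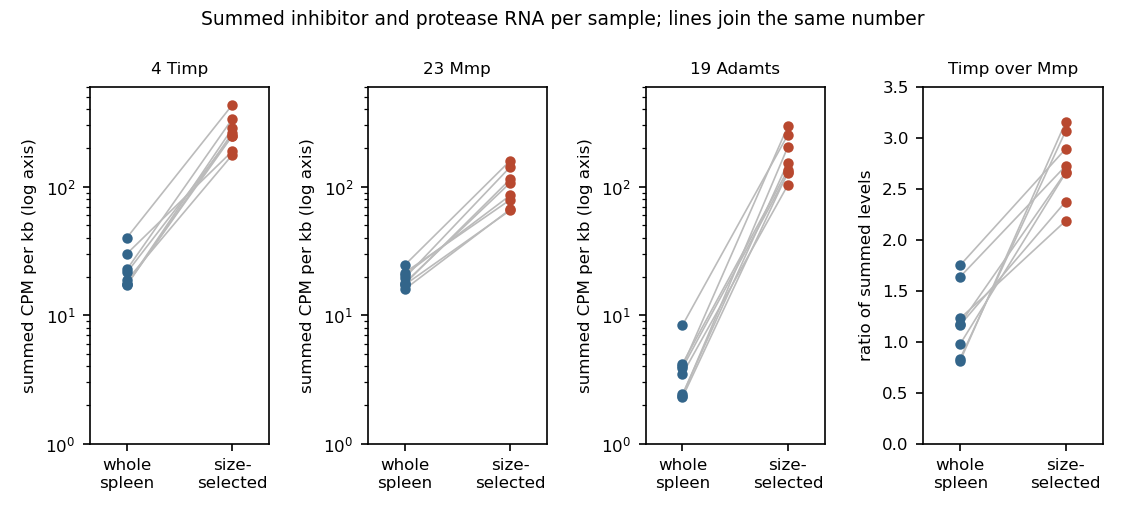
Summed CPM per kilobase of the 4 Timp, 23 Mmp and 19 Adamts genes in each sample (log axes) and the ratio of the Timp to the Mmp sum (linear axis), with grey lines joining the samples of the same number. The Timp to Mmp ratio lies between 2.18 and 3.15 in the 8 size-selected samples, above the 0.811 to 1.74 of the 8 whole spleen samples.

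Samples of a fraction were not equal. Among the 28 genes called higher, the highest size-selected sample was number 427 for 17 genes, 436 for 7, 460 for 3 and 408 for 1, and the lowest was 408 for 16, 435 for 6, 447 for 4 and 407 for 2. In whole spleen number 427 was the highest for 15 genes and 435 for 5. The same whole spleen sample had the highest summed fibroblast markers, 55.6 CPM against 22.4 in the next, the highest smooth muscle and pericyte markers, 72.5 against 44, and the highest endothelial markers, 186 against 119. Without it 29 genes were called higher and 3 lower, against 37.9% and 30.1% of all genes. The added genes were Adamts20, which then passed the filter, and Mmp12. In the size-selected samples the endothelial, the smooth muscle and pericyte, and the dissociation-induced sums were highest in 427 and lowest in 408. The fibroblast sum was highest in 436 and lowest in 408, the mesothelial sum highest in 445 and lowest in 408. The glia sum was highest in 436 and lowest in 447. The part of these markers in the values of single samples, 427 included, was not tested.

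Several of the genes are neighbours in the genome. The largest group is on chromosome 9, where 10 Mmp genes lie within 427.1 kilobases (7272514 to 7699585 on GRCm38) in the order Mmp13, Mmp12, Mmp1b, Mmp3, Mmp1a, Mmp10, Mmp8, Mmp27, Mmp20 and Mmp7. Direction varied inside this stretch. Mmp3 and Mmp13 rose, Mmp8 fell, Mmp12 was not called, and the other 6 were too low to test or at 0. Mmp3 had the largest fold change, and its neighbours on either side, Mmp1b and Mmp1a, had no counts at all. The plot of the chromosome 9 genes shows this along the cluster.

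**Figure D4:**
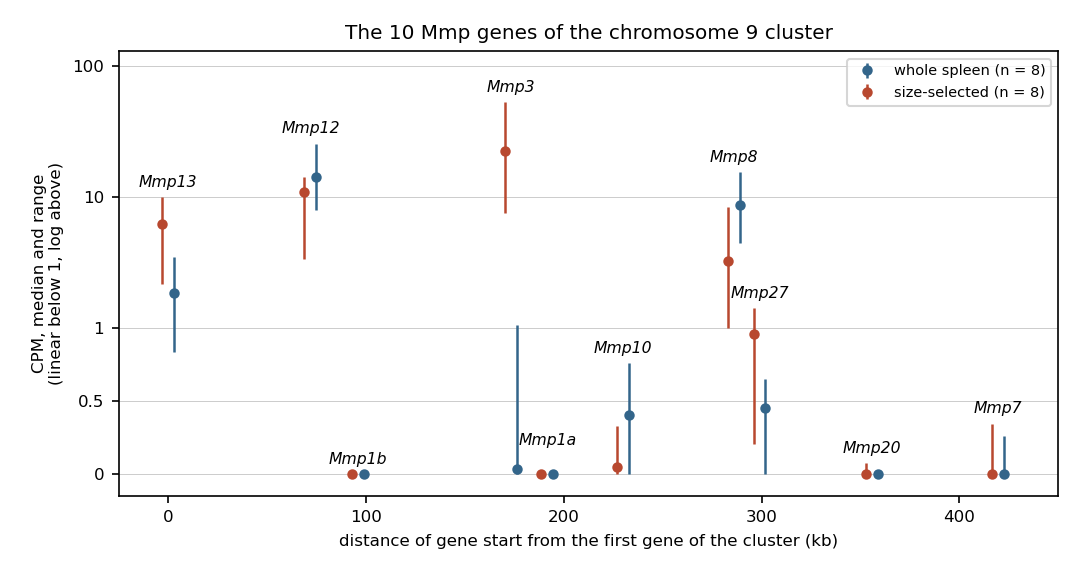
Median and range of CPM over 8 samples per fraction for the 10 Mmp genes of the chromosome 9 cluster, plotted by distance of the gene start from the first gene in kilobases, on an axis that is linear below 1 CPM and logarithmic above. Mmp3 and Mmp13 are higher in the size-selected samples, Mmp8 is lower, and Mmp1a and Mmp1b are at 0.

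The start regions of these genes show what the cluster has in common and where its members differ. AP-1, the dimer of Fos and Jun proteins, is a textbook activator of several of them, and its motif TGAGTCA (reverse complement TGACTCA, which reads the other strand) was searched from 250 bases before to 50 after each start in the RefSeq promoters (GRCm38.p6). The motif was found in 1709 of 32851 promoters, 5.2%. RefSeq promoters were listed for 36 of the 51 genes (39 promoters), and 7 of the 39, 17.9%, held a match. The 15 genes with no listed promoter, Mmp2 and Mmp9 among them, all lie outside the cluster and were not searched. All 7 matches were in the chromosome 9 cluster, in Mmp1a, Mmp1b, Mmp3, Mmp7, Mmp10, Mmp12 and Mmp13. Of the 26 other genes with a listed promoter, 0 had an exact match. The GC box GGGCGG (reverse complement CCGCCC, which does not overlap the AP-1 motif) showed the reverse: 22 of the 39 promoters (56.4%) held it, against 35.7% of all promoters, and these belonged to 22 of the 26 other genes and 0 of the 10 cluster genes. For the 5 cluster genes whose levels are given above, to show the match beside their different directions, the sequence (RefSeq, 120 bases, plus strand of chromosome 9) runs from 100 bases before to 20 after the start, 5′ to 3′, with the AP-1 match in capitals.
Mmp3 (chr9:7445722-7445841): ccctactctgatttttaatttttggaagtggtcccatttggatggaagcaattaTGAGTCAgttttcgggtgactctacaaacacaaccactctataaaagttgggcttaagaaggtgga
Mmp13 (chr9:7272414-7272533): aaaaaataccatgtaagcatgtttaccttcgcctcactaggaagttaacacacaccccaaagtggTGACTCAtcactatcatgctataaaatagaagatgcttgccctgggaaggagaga
Mmp12 (chr9:7347274-7347393): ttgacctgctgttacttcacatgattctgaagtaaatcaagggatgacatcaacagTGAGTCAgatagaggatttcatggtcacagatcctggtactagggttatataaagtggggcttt
Mmp10 (chr9:7502242-7502361): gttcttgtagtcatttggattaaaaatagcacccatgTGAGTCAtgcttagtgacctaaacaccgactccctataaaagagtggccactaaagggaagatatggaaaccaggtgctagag
Mmp8 (chr9:7558329-7558448): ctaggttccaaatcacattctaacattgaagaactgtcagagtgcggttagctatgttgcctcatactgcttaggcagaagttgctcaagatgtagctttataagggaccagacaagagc
The match begins 46 bases before the start in Mmp3, 35 in Mmp13, 44 in Mmp12 (at the more downstream of its listed starts) and 63 in Mmp10, and Mmp8 has none in this window. Genes with a match included 1 with a large rise (Mmp3), 1 with a smaller rise (Mmp13), 1 not called (Mmp12) and 4 too low to test. A match is a description of the sequence and not a measured binding site.

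Outside the cluster, 3 pairs of ADAMTS-family genes lie side by side, and both genes of each pair rose. Adamts1 and Adamts5 lie within 108 kilobases on chromosome 16 and rose by 6.67 and 3.38 on the log2 scale. Adamts8 and Adamts15 lie within 64.68 kilobases on chromosome 9 and rose by 7.25 and 5.23. Adamts13 and Adamtsl2 lie within 135.6 kilobases on chromosome 2 and rose by 5.42 and 5.99. Since 11 of 12 tested Adamts genes and 4 of 4 Adamtsl genes rose, shared direction within a pair describes the genes and no more.

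Related genes were described with 5 lists, 2 of matrix genes and 3 of other proteases and regulators. Of 80 genes listed 68 were tested, of which 56 were called higher and 7 lower, against 37.5% and 30.4% of all genes tested. Of 11 proteoglycan genes, the substrates of several ADAMTS enzymes, 8 were tested and all 8 rose, with a median log2 fold change of 5.90. Fmod, a collagen-binding proteoglycan, rose by 6.92 (SE 0.72, edgeR adjusted p = 1.02e-07) and Prelp, another small leucine-rich proteoglycan, by 6.81. Vcan, which encodes versican, rose by 2.17 (1.87 to 8.66 CPM against 0.55 to 2.37), and Acan, which encodes aggrecan, was at most 0.644 CPM in the size-selected samples and at 0 in whole spleen. Dcn and Lum of this list are also in the fibroblast marker list.

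Of 19 elastic fibre and microfibril genes, all 19 were tested, 18 rose and 1 fell, with a median of 6.36. Fbn1, which encodes fibrillin-1, rose by 7.72 (SE 0.48, edgeR adjusted p = 2.54e-10) and Mfap5, a microfibril protein, by 7.41. Emilin2, an elastin interface protein, fell by 0.51 (SE 0.20, edgeR adjusted p = 0.0285). Of 17 other protease regulators 14 were tested, 12 rose, 1 fell and 1 was not called, with a median of 2.58. Thbs2, which clears MMP2 by endocytosis, rose by 8.36 (SE 0.67, edgeR adjusted p = 4.08e-09), Spock3, a testican, by 6.61, and Reck, a membrane-bound inhibitor of MMPs, by 3.11. Cst3, a cathepsin inhibitor, fell by 0.36 (SE 0.15, edgeR adjusted p = 0.0458).

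Of 9 plasminogen system genes 7 were tested, 4 rose, 1 fell and 2 were not called, with a median of 1.06, beside 37.5% higher and 30.4% lower among all genes. Plat, the tissue plasminogen activator, rose by 6.10 (SE 0.40, edgeR adjusted p = 4.36e-10), while Plgrkt, a plasminogen receptor, fell by 1.23 (SE 0.10, edgeR adjusted p = 7.14e-09). Of 24 sheddases and matrix peptidases 20 were tested, 14 rose, 4 fell and 2 were not called, with a median of 1.21. Mme, a membrane endopeptidase, rose by 7.70 (SE 0.56, edgeR adjusted p = 1.26e-09) and Ctsk, a collagen-degrading cathepsin, by 6.74. The granule proteases Elane and Prtn3 fell by 1.39 (SE 0.47, edgeR adjusted p = 0.0139) and 1.22 (SE 0.41, edgeR adjusted p = 0.0143). Like Mmp8, these are proteases of neutrophil granules.

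The labels give the sex of each number, so the fraction difference could be compared between 4 male and 4 female pairs. Of 41 genes of the set tested for the interaction of sex and fraction, 0 had an adjusted p under 0.05 by edgeR, by DESeq2 or with the number as a replicate block. The smallest adjusted p was 1 in the main edgeR fit, 0.385 in the edgeR fit with the replicate block and 0.295 by DESeq2. Over all 15760 genes the calls were 0% for edgeR and 0.019% each for DESeq2 and the replicate block. At an unadjusted p under 0.05 the set held 8 genes (19.5%) by edgeR, 11 by DESeq2 and 10 with the replicate block, against 4.72%, 5.5% and 5.93% of all genes. All 8 had the larger fraction difference in females, as did 28 of all 41 genes of the set and 51.6% of all genes. The genes were measured in the same pairs, so their directions are not independent. The unadjusted edgeR p was 0.00276 for Adamtsl5, 0.00494 for Adamts7, 0.0156 for Adamts17 and 0.0175 for Mmp28. It was 0.022 for Adamts1, 0.0288 for Adamts5, 0.0465 for Adamts15 and 0.0494 for Adamts2. None of these passes the correction.

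Values by sex are given for 3 of these genes. Adamts5 in whole spleen was at 0.0687 to 1.87 CPM in females and 2.18 to 3.71 in males, and at 11.6 to 22.6 and 9.48 to 36.5 in the size-selected samples. Adamtsl5 in whole spleen was at 0 to 0.0687 CPM in females and 0.21 to 0.816 in males. Adamts1 in whole spleen was at 1.48 to 5.9 CPM in females and 3.36 to 20.2 in males, the 20.2 being number 427. Without number 427 the set held 11 of 41 genes (26.8%) at an unadjusted p under 0.05, 9 of them larger in females, against 11.3% of all genes, and leaving out each number in turn gave 4 to 11. The plot by sex shows most genes near the line of equal difference or above it.

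**Figure D5:**
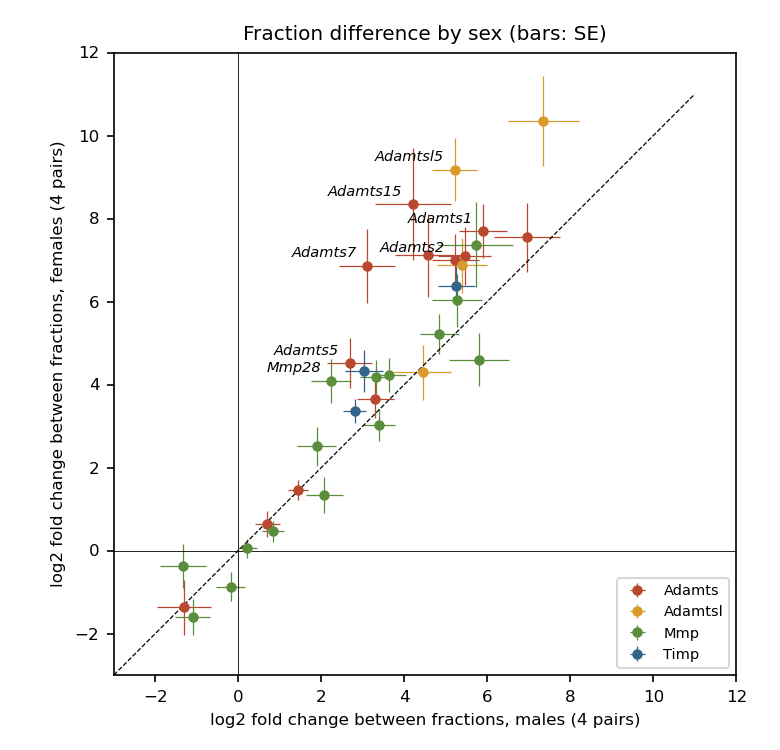
Log2 fold change of size-selected over whole spleen in 4 male pairs (x axis) and 4 female pairs (y axis) for the 34 tested genes, with standard errors as bars and the line of equal values dashed. Named genes have an unadjusted interaction p under 0.05 and an adjusted p of 1.

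The authors' deposited table lists 2201 genes, each higher in the size-selected samples, and 23 of the 51 genes are in it, against 4.01% of all genes in the count table. Of these 23, 18 were called higher here, and the other 5 (Adamts12, Adamts16, Adamts20, Adamtsl3 and Timp4) did not pass the filter. The authors' deposited table gives a log2 fold change of 6.64 for Adamts1, 5.75 for Timp3 and 6.39 for Mmp3, and of 5.10 for Adamtsl5 and 3.60 for Adamts7, where the values here were 6.23 and 4.29. Its mean TPM was 195 in the size-selected samples and 2.63 in whole spleen for Timp3, and 160 and 1.18 for Adamts1, in the authors' deposited table. The genes in the authors' deposited table start at a log2 fold change of 3.5, and 10 genes called higher here are not among them, 8 of them with a log2 fold change here under 3.5 (Timp2, Mmp11, Mmp13, Mmp17, Mmp28, Adamts5, Adamts10 and Adamts14) and Adamts9 and Mmp15 at 3.51 and 3.72.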

How the data were processed

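RNA was sequenced from 8 size-selected and 8 whole spleen samples. The authors deposited expected counts (estimated counts per gene) for each sample. Per the submitters' processing notes, Trim Galore, STAR, RSEM, DESeq and the mm10 build were used, and their roles, the annotation and the use of strand are not given in the sources used here. A second file is the authors' comparison. Per the file headers, its deposited values are a mean signal, a log2 fold change with its SE, a test score, p-values, and group means in TPM and FPKM. The deposited FPKM, score and signal values were not used. All 16 count columns were used, and 0 were left out.

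For 3898 genes, the estimated counts deposited for the size-selected samples had been multiplied by constants (0.659 to 0.964), which is known only from the values. They were tested as deposited, and dividing by the constants (restored counts) was an alternative. Of the 51 genes, 23 carried a constant.

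Counts were rounded, filtered with filterByExpr (minimum count 10), scaled by TMM and tested over all genes with edgeR 4.0.16 in R 4.3.3 (quasi-likelihood F test, group as the only term, Benjamini-Hochberg adjusted p under 0.05). DESeq2 1.42.0 was an alternative. CPM use TMM-scaled totals, log2 CPM a prior count of 2, and lengths and coordinates GENCODE release M21 (GRCm38, 51 of 51 identifiers matched). Totals of 12153770 to 19944440 counts put 1 count near 0.1 CPM or below, and intervals and floors (3 counts) cover counting error only.

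Numbers were taken to pair samples. Across genes, deviations of same-numbered samples from their group means correlated at 0.12 to 0.38 (mean 0.21), those of different numbers at -0.03 on average, and 8 of 8 size-selected samples correlated best with their own number.

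On simulated counts, with a single fixed size of change planted up or down in 200 genes, the fraction fit recovered 94.7% of 188 changed genes among 14356. Of its 187 calls, 9 were on unchanged genes. DESeq2 recovered 96.8%, with 34 of 216 calls on unchanged genes. The interaction fit recovered 67.5% of 200 among 14502, with 14 of 149 calls on unchanged genes. Far fewer genes changed in the simulation than the 37.5% higher and 30.4% lower called in the data, and no pairing was simulated. The rates therefore hold for that setting and are not error rates of the results above.

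The genes and lists were chosen with earlier results of these data known. Values were printed for the 4 Timp genes, genes with a mean size-selected CPM of at least 10, genes called lower, and the 3 largest rises of each protease family. From each list the 2 largest called rises and falls were named, except for a gene that is not reported here. Other genes named were chosen after their values were seen. Alternatives were RLE scaling, library totals, other filters, DESeq2, the replicate block, sex as a covariate, restored counts, a log2 fold change limit of 1, and leaving out each number or the whole spleen sample of 427.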

Additional observations from a re-analysis of the deposited data

Results flagged for a closer look

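A sample far from the other 7 of its group was seen in 6 of 68 groups of 8 values on the log2 CPM scale. The limit used gives about 1 in 20 by chance for normally spread values. That rate does not hold for groups with most samples at 0, such as Adamts13 and Adamts15 in whole spleen, so 6 of 68 cannot be set against it. Number 435 was low in the size-selected samples for Timp1, at 3.33 against 4.29 to 5.11 in the others, and for Adamts10, at 3.06 against 3.56 to 3.96. The same number was low in whole spleen for Mmp25, at -1.54 against 1.36 to 2.40. Number 427 was high in whole spleen for Adamts13, at 0.35 against -2.91 to -1.45, and for Adamts15, at -0.51 when the other 7 had no counts and stood at -2.91. Number 427 was low in the size-selected samples for Mmp12, at 1.81 against 2.95 to 3.86. The direction of Adamts10, Adamts13, Adamts15 and Timp1 between fractions was the same with and without these numbers, while Mmp12 and Mmp25 passed the threshold without them.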

How the results depend on the processing

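The count of genes called higher stayed between 22 (minimum count 50) and 36 (no count filter) around 28, and was 27 to 29 when each number was left out. The count called lower, 2, was 4 with DESeq2, 4 with no count filter and 1 with a minimum count of 50, and ran from 2 to 4 when each number was left out, 4 being without number 435. With the replicate block 29 genes were higher (Mmp19 added) and 3 lower (Mmp12 added), and the pairing changed no other call of the 34 genes. Of 570 single-gene alternatives 556 kept direction and side of the threshold, 13 brought Mmp9, Mmp12, Mmp19 or Mmp25 past it, 1 took Adamts14 back (0.49 without number 427), and 0 reversed. With a log2 fold change limit of 1, which was applied to the counts only, 27 were higher and 2 lower, Adamts14 being lost. The cause was not tested. For the pathway lists the count higher was 48 to 64 around 56. The count lower, 7, was 4 with library totals, 3 with a log2 fold change limit of 1, and 4 to 7 when each number was left out (4 without number 445). The replicate block gave 56 higher and 8 lower there. Members called in the interaction were 0 under each alternative. Library totals in place of TMM moved the median of all genes by 0.13 on the log2 scale. The low counts of whole spleen limit the fold changes of Mmp3, Adamts7, Adamts8, Adamts13, Adamts15, Adamtsl1 and Adamtsl5.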
